A study of Mus musculus with 2 samples.

Results

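The neuregulins and the Erbb receptors were described in poly(A)+ RNA of mouse embryonic central nervous system. The 8 genes were taken by symbol from the 43346 genes of the deposited gene tables: the ligand genes Nrg1, Nrg2, Nrg3 and Nrg4, and the receptor genes Egfr, Erbb2, Erbb3 and Erbb4. All tissue came from C57BL/6J embryos at embryonic day 14 with no treatment or mutation named in the labels, and it formed 1 group of 2 biological replicates, each made from littermates of both sexes pooled together. Both replicates share a donor identifier, so the spread between them is that of 2 pools, and with 1 library for each there is no p-value. Replicate 2 held 134760822 expected counts on genes and replicate 1 held 99528934.

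Neuregulins are growth factors made mostly as membrane-anchored precursors that proteases cut at the cell surface. Each carries an EGF-like domain, a small fold held together by pairs of cysteines, which binds ErbB3 or ErbB4. ErbB2 has no known ligand of its own and ErbB3 has a weak kinase, so they signal mainly in pairs with other ErbB receptors, whereas ErbB4 and the EGF receptor both bind ligand and are active kinases. In the developing nervous system this pathway is known for the survival and migration of Schwann cells and neural crest through ErbB2 and ErbB3, and for interneuron migration and radial glia through ErbB4.

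Much of the biology of Nrg1 and Erbb4 lies in short alternative exons, so the sequences of 7 exons read from the GENCODE M21 transcripts on mm10, all on the minus strand and written 5′ to 3′, are given before the values. In Nrg1, the EGF-like domain begins in a shared exon of 130 nucleotides and ends in either the beta exon (59 nucleotides) or the alpha exon (68 nucleotides), and the beta form may go on into an exon of 24 nucleotides just before the membrane-spanning part. Capitals mark in-frame cysteine codons in the first 3 sequences below and the whole exon in the fourth.
Nrg1 EGF exon, chr8:31849310-31849439: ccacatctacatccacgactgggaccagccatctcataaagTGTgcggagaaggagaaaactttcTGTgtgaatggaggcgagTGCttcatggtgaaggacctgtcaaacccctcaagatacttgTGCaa
Nrg1 beta exon, chr8:31837670-31837728: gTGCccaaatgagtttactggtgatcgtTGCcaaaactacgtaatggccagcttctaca
Nrg1 alpha exon, chr8:31838261-31838328: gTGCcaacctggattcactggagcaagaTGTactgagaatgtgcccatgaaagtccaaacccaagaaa
Nrg1 24-nucleotide exon, chr8:31831205-31831228: AGCATCTTGGGATTGAATTTATGG
The shared exon holds 4 cysteine codons, and the beta and alpha exons hold 2 each at the same places from their 5′ ends. Beyond them the sequences part, and the longest run of bases that the beta and alpha exons share is 7.

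In Erbb4, the stretch outside the membrane comes from either the JM-a exon (75 nucleotides), whose protein is known to be cut by the protease ADAM17, or the JM-b exon (45 nucleotides), whose protein is not. The CYT-1 exon of 48 nucleotides, absent from CYT-2 forms, adds a binding motif for phosphoinositide 3-kinase to the tail inside the cell. Capitals mark cysteine codons in both JM exons, and in the CYT-1 exon they mark the codons for tyrosine, 2 further residues and methionine that make up that motif.
Erbb4 JM-a exon, chr1:68290243-68290317: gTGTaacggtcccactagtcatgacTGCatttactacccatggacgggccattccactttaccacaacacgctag
Erbb4 JM-b exon, chr1:68290439-68290483: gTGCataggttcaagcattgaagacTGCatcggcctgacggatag
Erbb4 CYT-1 exon, chr1:68043908-68043955: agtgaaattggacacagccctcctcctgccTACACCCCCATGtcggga
Both JM exons keep 2 cysteine codons, and the 30 nucleotides by which they differ in length lie downstream of the second one.

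Among the ligands, Nrg1 and Nrg3 stood at about the same level, Nrg2 was lower and Nrg4 was close to 0 (levels are TPM, the share of all transcripts, which are per length and can be compared between genes). Nrg3, which binds ErbB4 (chr14:38368952-39473088 on mm10, minus strand), was at 9.33 TPM in replicate 2 and 10.71 TPM in replicate 1, a mean of 10.02 ± 0.976 (SD, n = 2). Nrg1, which binds ErbB3 and ErbB4 (chr8:31814551-32884029, minus strand), was at 9.55 TPM in replicate 2 and 9.25 TPM in replicate 1, a mean of 9.40 ± 0.212 (SD, n = 2). Their values overlapped, so the data give no order between them.

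Nrg2, which binds the same receptors as Nrg1 (chr18:36017652-36197380, minus strand), was at 3.02 TPM in replicate 2 and 4.03 TPM in replicate 1, a mean of 3.53 ± 0.714 (SD, n = 2). Nrg4, an ErbB4 ligand (chr9:55220222-55326844, minus strand), was at 0.09 TPM in replicate 2 and 0.28 TPM in replicate 1, from 12 and 20 expected counts in replicates 2 and 1. Every value of Nrg2 lay below every value of Nrg1 and Nrg3 and above every value of Nrg4. The counts of Nrg4 were above the 3 counts that a count of 0 allows, but they support no closer reading.

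Among the receptors, Erbb2 had the highest mean, and Erbb4 was the receptor whose level differed least between the replicates. Erbb2, the shared partner of the family (chr11:98412470-98437716, plus strand), was at 6.55 TPM in replicate 2 and 12.39 TPM in replicate 1, a mean of 9.47 ± 4.13 (SD, n = 2). Erbb4 (chr1:68032186-69108059, minus strand) was at 6.02 TPM in replicate 2 and 5.17 TPM in replicate 1, a mean of 5.60 ± 0.601 (SD, n = 2). In TPM of the whole gene, Erbb2 was above Erbb4 in both replicates, by a small margin in replicate 2.

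Egfr, the receptor of EGF, TGF-alpha and HB-EGF (chr11:16752203-16918158, plus strand), was at 2.27 TPM in replicate 2 and 5.70 TPM in replicate 1, a mean of 3.99 ± 2.43 (SD, n = 2). Erbb3, the neuregulin receptor with the weak kinase (chr10:128567523-128589652, minus strand), was at 0.72 TPM in replicate 2 and 4.40 TPM in replicate 1, a mean of 2.56 ± 2.60 (SD, n = 2). For both, replicate 2 was the lower library, and for Erbb3 the SD was larger than the mean. In replicate 2 Erbb3 fell under 1 TPM, the level used here to call a gene detected.

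The order of mean TPM over all members was Nrg3, Erbb2, Nrg1, Erbb4, Egfr, Nrg2, Erbb3 and Nrg4. Of the 7 pairs of neighbours in it, the replicate values of 5 overlapped; Nrg1 stayed above Erbb4, and Erbb3 above Nrg4, in both replicates. Nrg1 ranked first in replicate 2 and Erbb2 ranked first in replicate 1. The members ran over the middle and lower part of the tissue's range: Nrg3 stood at the 55.7th percentile of mean TPM among 21474 protein-coding genes, Erbb4 at the 48.1st, Erbb3 at the 41.3rd and Nrg4 at the 27.1st, beside a median gene of 6.605 TPM. A mean of at least 1 TPM was reached by 7 of the 8 members, against 65.2% of protein-coding genes.

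**Figure D1:**
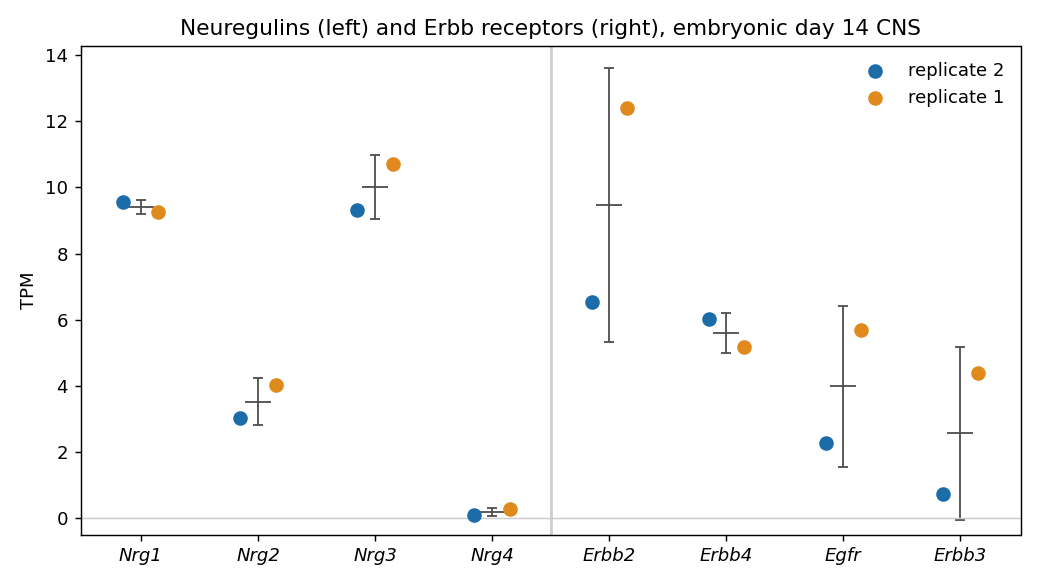
Level of each neuregulin (left of the line) and Erbb receptor (right) in TPM; points are replicate 2 (blue) and replicate 1 (orange), the bar is the mean and its whiskers 1 SD (n = 2). Nrg1, Nrg3 and Erbb4 stay close between the replicates, while Erbb2, Egfr and Erbb3 are lower in replicate 2, Erbb3 at 0.72 TPM against 4.40 TPM in replicate 1.

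The make-up of the ligands was stable while that of the receptors was not. Summed over the 4 ligands, the level was 21.99 TPM in replicate 2 and 24.3 TPM in replicate 1; summed over the 4 receptors it was 15.6 TPM in replicate 2 and 27.7 TPM in replicate 1. Nrg1 made up 43.4% of the ligand total in replicate 2 and 38.1% in replicate 1, and Nrg3 made up 42.4% in replicate 2 and 44.1% in replicate 1. Together these genes supplied most of the neuregulin RNA in both libraries.

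Erbb2 held 42.1% of the receptor total in replicate 2 and 44.8% in replicate 1. Erbb4 held 38.7% in replicate 2 and 18.7% in replicate 1, Egfr 14.6% in replicate 2 and 20.6% in replicate 1, and Erbb3 4.63% in replicate 2 and 15.9% in replicate 1. In percentage points the share of Erbb2 moved least and that of Erbb4 most, although as a ratio the share of Erbb3 moved further than that of Erbb4. The share of Erbb4 depends on the levels of the other receptors, and its own level differed less between the replicates than theirs. The 2 receptors that bind neuregulins directly stood 8.36 to 1 (Erbb4 over Erbb3, in TPM) in replicate 2 and 1.18 to 1 in replicate 1.

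**Figure D2:**
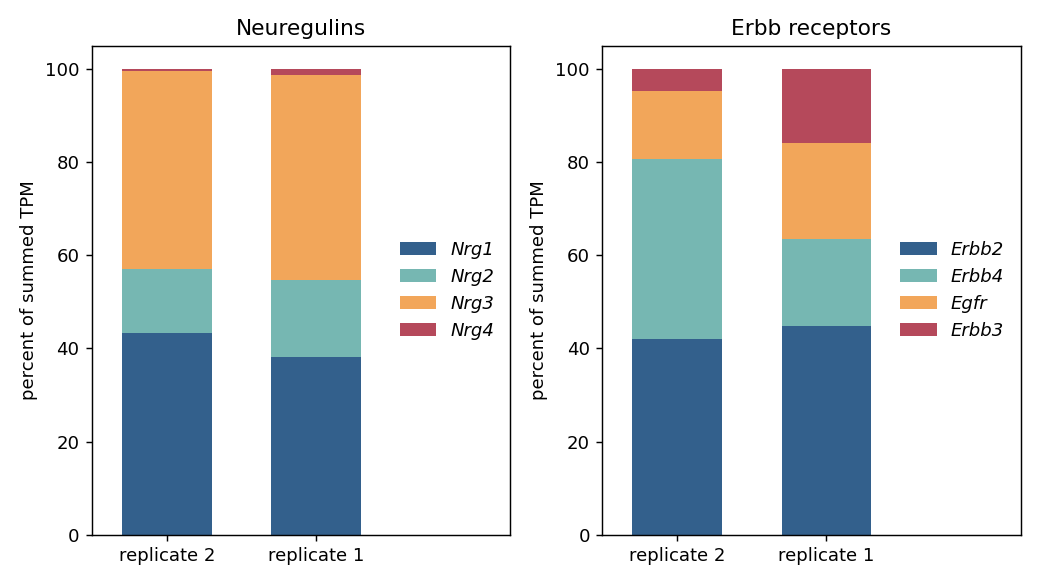
Percent of the summed TPM of the 4 neuregulins (left panel) and of the 4 Erbb receptors (right panel) in each gene, for replicate 2 and replicate 1. The neuregulin bars look alike, while Erbb4 takes 38.7% of the receptor bar in replicate 2 and 18.7% in replicate 1.

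The ratio between the replicates was then taken on expected counts, scaled by the TMM method over all genes, with counting intervals that cover counting error only. The reading was limited to genes that averaged at least 200 expected counts, as 7 of the 8 members did. Erbb3 had 354.0 expected counts in replicate 2 and 1621.0 in replicate 1, a log2 ratio of -2.61 (exact 95% interval -2.78 to -2.44), or 6.09-fold lower in replicate 2. Egfr had 1522.0 expected counts in replicate 2 and 2924.0 in replicate 1, a log2 ratio of -1.36 (-1.45 to -1.27). These are the only members with such counts that were at least 2-fold lower in replicate 2, 2 of 7, where 3.95% of the 14340 genes with such counts were; no member was at least 2-fold higher, where 0.286% of genes were. Of those 14340 genes, 96 had a lower ratio than Erbb3 and 331 a lower ratio than Egfr.

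Erbb2 came close to that fold, with 2498.0 expected counts in replicate 2 and 3514.0 in replicate 1 and a log2 ratio of -0.91 (-0.98 to -0.83). Erbb4 stood apart from the other receptors, with 5506.0 expected counts in replicate 2 and 3629.0 in replicate 1 and a log2 ratio of 0.19 (0.13 to 0.25). For the ligands the ratios were 0.05 for Nrg1 (-0.06 to 0.16), -0.14 for Nrg3 (-0.23 to -0.05) and -0.40 for Nrg2 (-0.56 to -0.25). Over all 14340 genes the median log2 ratio was 0.02 and the range from the 5th to the 95th percentile was -0.87 to 0.35, so Erbb4 and the 3 ligands lay inside it, and Erbb2, Egfr and Erbb3 below it. Nrg4 had a ratio of -1.08 with an interval from -2.32 to -0.05.

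Markers of tissues outside the central nervous system differed between the libraries in the same direction as Erbb3, Egfr and Erbb2. The marker counts given from here on stand beside 3.95% of the 14340 genes with enough counts that were at least 2-fold lower in replicate 2. In the list for Schwann cells and neural crest, 6 of the 8 genes with enough counts were at least 2-fold lower in replicate 2, the median log2 ratio was -1.53, and the summed level of all 11 genes was 56.4 TPM in replicate 2 and 105 TPM in replicate 1. Sox10, a transcription factor of those cells and of oligodendrocyte precursors, was at 4.84 TPM in replicate 2 and 16.79 TPM in replicate 1; it was named after its values were seen. By the rule for naming genes, Ngfr, a neurotrophin receptor, was at 14.7 TPM in replicate 2 and 31.78 TPM in replicate 1. No gene of the list was at 0 in either library.

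Peripheral neurons gave the same picture, with 5 of 6 genes at least 2-fold lower and sums of 82.2 TPM in replicate 2 and 159 TPM in replicate 1; Prph, an intermediate filament of such neurons, was at 29.42 TPM in replicate 2 and 93.13 TPM in replicate 1, and Isl1, a transcription factor also of motor and striatal neurons, at 43.56 TPM in replicate 2 and 36.51 TPM in replicate 1. Skin epithelium, where Egfr and Erbb3 are known to be active, gave 9 of 9 genes lower and sums of 19.8 TPM in replicate 2 and 132 TPM in replicate 1, led by the keratins Krt5, at 4.61 TPM in replicate 2 and 47.95 TPM in replicate 1, and Krt14, at 3.82 TPM in replicate 2 and 34.79 TPM in replicate 1. Skeletal muscle gave 9 of 9 genes lower and sums of 11.8 TPM in replicate 2 and 605 TPM in replicate 1, led by the contractile genes Actc1, at 3.26 TPM in replicate 2 and 186 TPM in replicate 1, and Mylpf, at 2.87 TPM in replicate 2 and 163 TPM in replicate 1. No gene of these lists was at 0 in either library, and each summed level was higher in replicate 1.

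Cartilage and bone gave 5 of 7 genes at least 2-fold lower, with sums of 137 TPM in replicate 2 and 783 TPM in replicate 1, led by Col2a1 and Matn1 of cartilage matrix. Fibroblasts and meninges gave 4 of 7, with sums of 528 TPM in replicate 2 and 1244 TPM in replicate 1, led by the collagens Col1a2 and Col3a1. In the list for oligodendrocyte precursors, which shares Sox10 with the Schwann list, 3 of 6 genes were at least 2-fold lower, and sums were 61.7 TPM in replicate 2 and 95.6 TPM in replicate 1; Pdgfra, also a fibroblast gene, was at 8.48 TPM in replicate 2 and 22.66 TPM in replicate 1, and Olig1, a transcription factor of the lineage, at 24.36 TPM in replicate 2 and 28.47 TPM in replicate 1. Red blood cell genes, led by the globins Hba-a2 and Hbb-bs, had 1 of 5 genes at least 2-fold lower, with sums of 5867 TPM in replicate 2 and 11792 TPM in replicate 1. The part of any of these tissues in the receptor differences was not tested, and in bulk tissue fewer cells of a type and less RNA per cell cannot be told apart.

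No marker in the lists for neurons and radial glia was 2-fold apart between the libraries. Neuronal genes had a median log2 ratio of 0.17, with 0 of 6 genes 2-fold apart; Tubb3, a neuronal tubulin, was at 2133 TPM in replicate 2 and 1820 TPM in replicate 1, and Stmn2, a growth cone protein, at 606 TPM in replicate 2 and 603 TPM in replicate 1. Radial glia, the progenitors in which Egfr and Erbb4 are also known, had a median of 0.24 and 0 of 7 genes 2-fold apart. The log2 ratios of this list ran from 0.05 to 0.60. The highest lay above 0.35, the 95th percentile of all genes with enough counts. Vim was at 961 TPM in replicate 2 and 913 TPM in replicate 1. Fabp7 was at 988 TPM in replicate 2 and 846 TPM in replicate 1. The neuronal markers summed to 3439 TPM in replicate 2 and 3023 TPM in replicate 1, and the radial glial markers to 2293 TPM in replicate 2 and 2015 TPM in replicate 1, so the defining genes of the labelled tissue were present in both libraries.

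The list for GABA interneurons, which are known for Erbb4, differed in the opposite direction from Erbb3, Egfr and Erbb2, with a median log2 ratio of 0.42. Of the 12 genes, 2 were at least 2-fold higher in replicate 2, where 0.286% of genes with enough counts were. Against the direction of the list, 1 of the 12 had a ratio below 0. The sums were 683 TPM in replicate 2 and 506 TPM in replicate 1. Gad1, an enzyme of GABA synthesis, was at 110.6 TPM in replicate 2 and 105.3 TPM in replicate 1, and Sst, the neuropeptide somatostatin, at 167 TPM in replicate 2 and 147 TPM in replicate 1. Among the genes past the 2-fold line was the transcription factor Dlx1, named after its values were seen, at 144 TPM in replicate 2 and 71.6 TPM in replicate 1. Whether this bears on the level or share of Erbb4 was not tested. Vessels (median -0.18, with Egfl7 and Cldn5 highest) and microglia (median 0.22, with C1qb and C1qa highest) had no gene 2-fold apart.

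**Figure D3:**
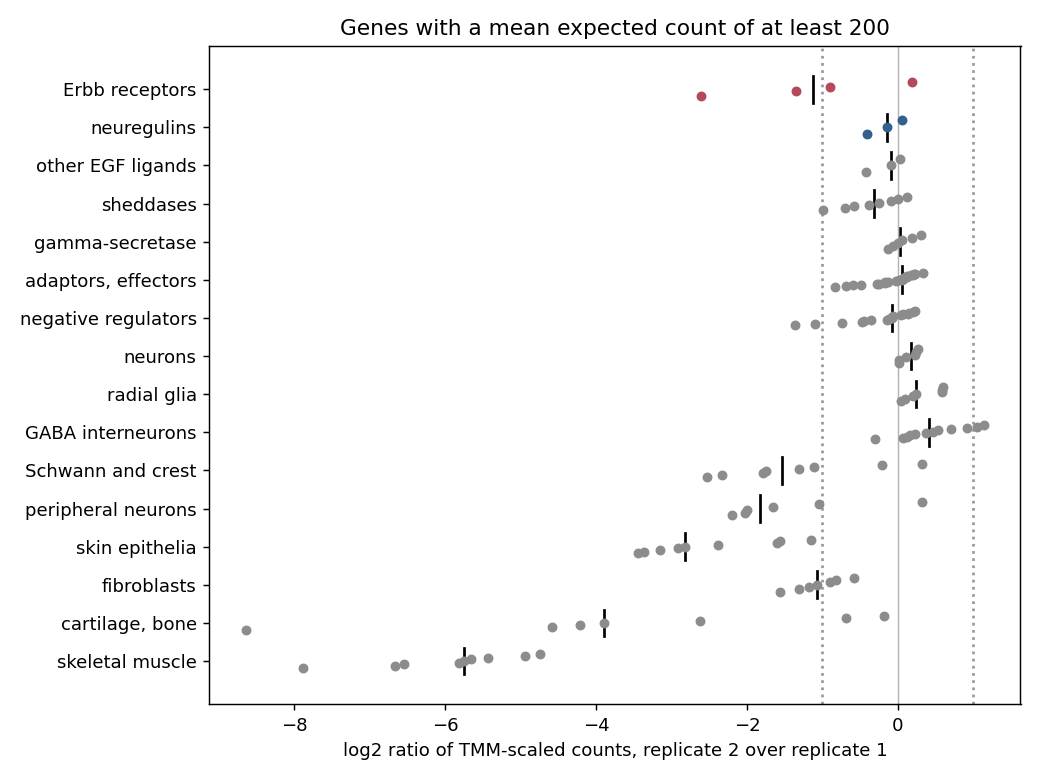
Log2 ratio of replicate 2 over replicate 1 (TMM-scaled expected counts) for each gene that averaged at least 200 expected counts, by gene list; black bars are list medians and dotted lines mark 2-fold. The Erbb receptors are spread from -2.61 (Erbb3) to 0.19 (Erbb4) and the neuregulins lie near 0, while lists for muscle, cartilage, skin and peripheral nerve lie well to the left.

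Nrg1 RNA of this tissue was mainly of type III with a beta EGF domain, by reads that cross splice junctions. These reads were deposited on mm9 in 2 fields that no label ties to a replicate number, so they are called field 1 and field 2 and carry no direction between replicates; 2385 reads fell in the Nrg1 window, 1920 of them (80.5%) on junctions whose intron length matched a GENCODE M21 intron. Type III Nrg1 begins at an exon that encodes a cysteine-rich domain and keeps the precursor anchored at both ends, the form known to drive Schwann cells from axons, while types I and II carry an Ig-like domain instead. Of 255 reads entering the shared EGF exon, 165 came from the cysteine-rich-domain exon, 64.7% with an exact binomial (Clopper-Pearson) 95% interval of 58.5 to 70.6%. The remaining 90 reads came from spacer and Ig-side exons or other places, the largest number, 50, from the nearer spacer exon of 51 nucleotides.

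The fields differed here by junction reads. Field 1 had 89 of 116 reads from the cysteine-rich-domain exon, 76.7% (68 to 84.1%), and field 2 had 76 of 139, 54.7% (46.0 to 63.1%). The intervals do not overlap, and they cover counting error only; no other splice choice below showed such a gap in junction reads. The deposited mm9 exon table lists the cysteine-rich-domain exon at 1.03 RPKM in field 1 and 0.984 in field 2. The EGF exon is listed there at 1.21 in field 1 and 1.16 in field 2. The near first exon, both Ig exons and the farther spacer exon all have the same values, 0.130 in field 1 and 0.131 in field 2. Values shared by exons of unlike length are not separate measures of each exon, so they cannot check the gap in junction reads. No label ties the fields of the exon table to those of the junction reads. The Ig-side junctions were covered throughout, with 76, 92 and 60 reads on the 3 successive junctions from the Ig-like exons to the spacers.

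On the Ig side, 29 reads joined the nearer annotated first exon to the first Ig exon, across an intron of 40824 nucleotides. From the farther annotated start, across an intron of 915330 nucleotides, or from any other place upstream, 0 reads were listed. By counting error alone that allows up to 3. The longest intron that the alignment could list is not known here, so the 0 does not tell whether those starts were used. Of the 165 reads called type III, 144 left the cysteine-rich-domain exon at its annotated end and 21 left it 70 nucleotides earlier, at a place that is not an intron end in GENCODE M21.

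The EGF domain itself was almost always of the beta form. Of 224 reads that left the EGF exon printed above for either alternative, 205 went into the beta exon, 91.5% (87.1 to 94.8%), and 19 into the alpha exon, with 91.3% beta in field 1 and 91.7% in field 2. A further 8 reads joined the EGF exon straight to the membrane-spanning exon of 103 nucleotides. Of the reads leaving the alpha exon, 16 went on into the beta exon and 7 into the membrane-spanning exon, so some RNAs with the alpha exon held the beta exon as well.

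After the beta exon, the 24-nucleotide exon was entered by 97 of 135 reads, 71.9% (63.5 to 79.2%), which is the linker of beta1 forms. The membrane-spanning exon was joined directly, as in beta2 forms, by 30 reads, and an exon of 78 nucleotides was entered by 8. The fields were alike, with 74.5% in field 1 and 70.2% in field 2. Near the end of the gene, a late exon of 142 nucleotides, after which the annotated reading frame is shorter, was counted in 32.2% of RNAs (26.5 to 38.9%), from the mean of 45 reads into it and 106 out of it against 159 that skipped it. The reads on its 2 sides were unequal, so this share is the less certain one.

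The deposited mm10 transcript table holds a single Nrg1 transcript of 2103 nucleotides, whose identifier belongs in GENCODE M21 to the type III beta form with the 24-nucleotide exon (Nrg1-201), and all Nrg1 expected counts were given to it. Reads on exons outside the quantified model do not enter the TPM, so the Nrg1 level above rests on 1 annotated form of a gene with several. On mm9, where Ensembl release 65 was used, Nrg1 had 1.21 RPKM in field 1 and 1.16 in field 2, the highest mean of the members there. Erbb2 was at 0.777 in field 1 and 1.48 in field 2. Erbb4 was at 0.802 in field 1 and 0.710 in field 2, so in field 1 it lay above Erbb2, unlike the order by TPM.

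Erbb4 RNA carried both juxtamembrane exons, and most of it lacked the CYT-1 exon. In the Erbb4 window 2000 junction reads were listed, 92.0% of them on GENCODE M21 introns, and each of the 31 annotated introns had at least 1 read. The JM-a exon printed above took 59 of 147 reads, 40.1% (32.1 to 48.5%), and JM-b the other 88, with JM-a at 31.9% (19.1 to 47.1%) in field 1 and 44.0% (34.1 to 54.3%) in field 2. The intervals of the fields overlapped. The junctions on either side of the exons gave unlike values, 52.8% JM-a from those leading in (38 of 72 reads) and 28% from those leading out (21 of 75), with intervals of 40.7 to 64.7% and 18.2 to 39.6%. The intervals of the sides do not overlap, so the pooled share is less certain than its counting interval shows.

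The CYT-1 exon was entered by 11 reads, left by 14 and skipped by 53. Its share was 19.1% (9.76 to 29.6%), from the mean of the reads in and out against those that skipped it. By that estimate CYT-2 forms, which lack the phosphoinositide 3-kinase motif, made up 80.9%. By junction reads, field 1 gave 20% and field 2 gave 18.5%. The deposited mm9 exon table gave the fields further apart, with the CYT-1 exon at 0.179 RPKM in field 1 and 0.0193 in field 2. The gene stood at 0.802 in field 1 and 0.710 in field 2. These values cannot check the junction share, given the values shared between exons of Nrg1 and fields not tied to those of the junctions. Depth limits these values, since no junction of this exon had more than 53 reads.

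**Figure D4:**
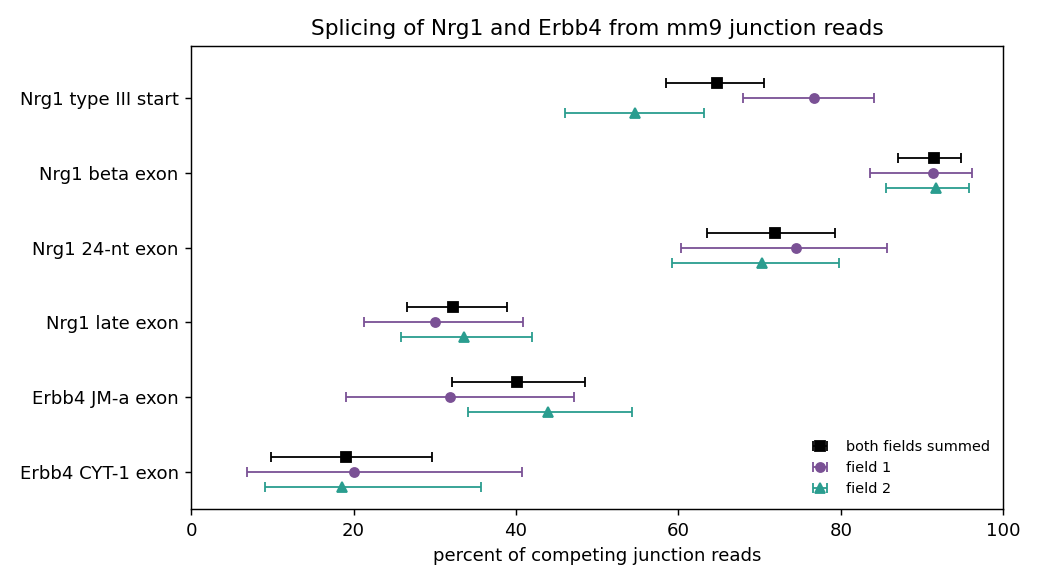
Percent of competing junction reads that support each choice in Nrg1 and Erbb4, for both fields of the mm9 table summed (squares), field 1 (circles) and field 2 (triangles); whiskers are exact 95% binomial intervals. For the late exon and the CYT-1 exon, the mean of the reads in and out is set against the reads that skip. The beta exon is near 91.5% in both fields. The type III start differs between fields at 76.7% and 54.7%, and the CYT-1 exon stays near 19.1%.

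The isoform estimates deposited for Erbb4 differ from those reads. By the share of the gene's TPM given to each annotated transcript, Erbb4-202 (JM-a, without the CYT-1 exon) had 51.2% in replicate 2 and 47.2% in replicate 1, and Erbb4-201 (JM-a, with the CYT-1 exon) had 40.1% in replicate 2 and 46.6% in replicate 1. The only transcript with the JM-b exon that had any counts, Erbb4-205, had 6.75% in replicate 2 and 5.51% in replicate 1. With both sides pooled, 59.9% of junction reads supported JM-b. The sides were unlike, with JM-b at 34 of the 72 reads leading in and 54 of the 75 leading out. Erbb4-205 has 2196 nucleotides and lacks the exons for most of the kinase and the tail, while the JM-a transcripts have 12037 and 11782. On mm9 the exon table, in which the RPKM of the EGF exon of Nrg1 equals that of the gene in both fields, likewise lists the JM-a exon at 0.730 RPKM in field 1 and 0.652 in field 2 and the JM-b exon at 0.0555 in field 1 and 0.0471 in field 2.

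Erbb2 differed between the replicates also in its isoforms. The protein-coding Erbb2-201 had 70.5% of the gene's TPM in replicate 2 and 85.1% in replicate 1. Erbb2-202, a transcript without an annotated reading frame, had 26.4% in replicate 2 and 8.89% in replicate 1. It keeps the 81-nucleotide intron at chr11:98433050-98433130, and its last exon has 765 nucleotides against 1404 in Erbb2-201. In expected counts Erbb2-202 had 617 in replicate 2 and 295 in replicate 1, while Erbb2-201 had 1877 in replicate 2 and 3210 in replicate 1. The coding form alone was thus at 4.62 TPM in replicate 2 and 10.53 TPM in replicate 1, 2.28-fold lower in replicate 2, a wider gap than that of the whole gene.

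Egfr kept its isoform make-up although its level was lower in replicate 2. Egfr-201, the full receptor, had 75.8% in replicate 2 and 77.4% in replicate 1. Egfr-202 ends before the kinase exons, with an annotated reading frame of 1965 nucleotides against 3630 in Egfr-201. Whether that frame reaches the membrane-spanning part was not read here. Egfr-202 had 10.8% in replicate 2 and 10.5% in replicate 1. The non-coding Egfr-204 had 13.5% in replicate 2 and 12.2% in replicate 1. All 3 were between 2.23-fold and 2.57-fold lower in replicate 2 in TPM. Erbb3 has 1 transcript in the table.

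Nrg3 was split between Nrg3-203, with 46.3% in replicate 2 and 55.04% in replicate 1, and Nrg3-201, with 39.8% in replicate 2 and 35.6% in replicate 1. In GENCODE M21, Nrg3-201 has an extra exon of 72 nucleotides. Its last exon has 2089 nucleotides against 548 in Nrg3-203, and its first exon 1117 against 856. The split is therefore not a reading of the 72-nucleotide exon alone. For Nrg2, the transcript Nrg2-203 had 89.3% in replicate 2 and 69.2% in replicate 1, and Nrg2-202 had 8.77% in replicate 2 and 27.9% in replicate 1, from 62.3 and 199 expected counts in replicates 2 and 1. These are 18 nucleotides apart in deposited length, and GENCODE M21 holds another model under the identifier of Nrg2-202, so the exon that separates them was not read here. Nrg2-203 itself was at 2.69 TPM in replicate 2 and 2.79 TPM in replicate 1, so most of the gene's gap between the replicates lay in Nrg2-202. Of the 13 Nrg4 transcripts, 7 were listed at 0 in both replicates; Nrg4-207 had 47.6% in replicate 2 and 21.6% in replicate 1, Nrg4-209 had 33.0% in replicate 2 and 27.5% in replicate 1, and Nrg4-202 had 19.5% in replicate 2 and 8.84% in replicate 1. In replicate 1 Nrg4-202 lay below Nrg4-212, Nrg4-204 and Nrg4-205, which were at 0 in replicate 2. No Nrg4 transcript had more than 8.19 expected counts, so these shares are uncertain.

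**Figure D5:**
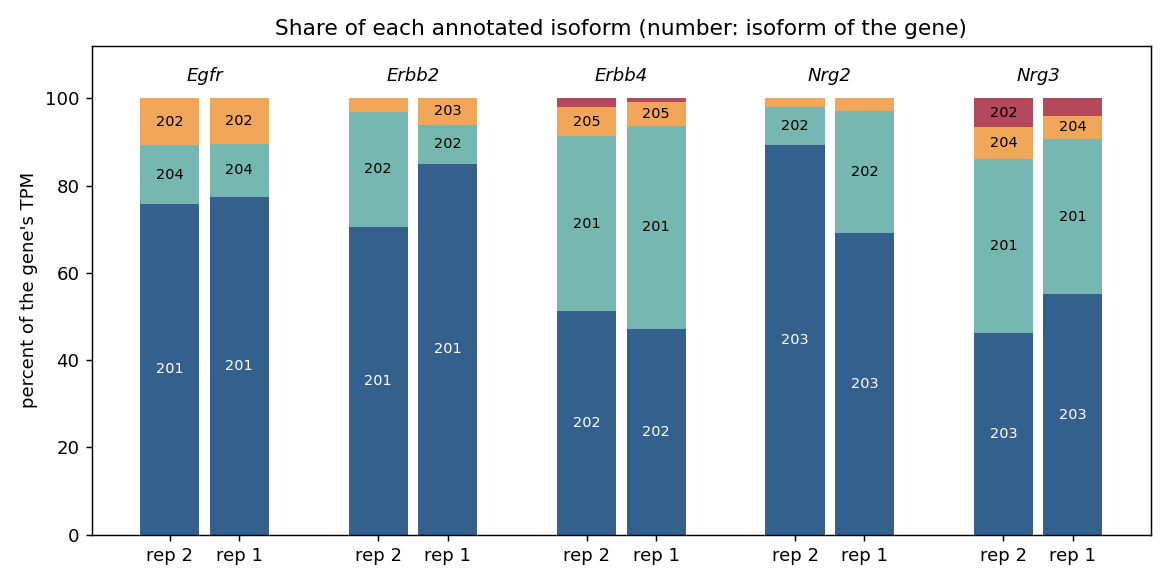
Percent of each gene's TPM in its annotated isoforms (numbers inside the bars), for replicate 2 (left bar) and replicate 1 (right bar) of each gene. Erbb2-202 takes 26.4% in replicate 2 and 8.89% in replicate 1, and Nrg2-202 takes 8.77% in replicate 2 and 27.9% in replicate 1, while the Egfr bars look alike.

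The other genes of the pathway were expressed around the members, most of them at higher levels. The counts below stand beside a share of 65.2% of all protein-coding genes that reached 1 TPM. Of the 14340 genes with enough counts, 3.95% were at least 2-fold lower in replicate 2 and 0.286% at least 2-fold higher. Of the 7 other EGF-family ligands, 3 reached 1 TPM: Tgfa at 7.25 TPM in replicate 2 and 7.48 TPM in replicate 1, Hbegf at 6.21 TPM in replicate 2 and 8.33 TPM in replicate 1, and Egf at 1.55 TPM in replicate 2 and 1.52 TPM in replicate 1. These are ligands of the EGF receptor, and none was 2-fold apart. Ereg was lowest, listed at 0 in replicate 2 and 0.01 TPM in replicate 1. All 3 EGF-like membrane proteins of the list were expressed: Tmeff1 at 268 TPM in replicate 2 and 242 TPM in replicate 1, Cspg5, or neuroglycan C, at 36.1 TPM in replicate 2 and 36.5 TPM in replicate 1, and Tmeff2 at 18.9 TPM in replicate 2 and 25.5 TPM in replicate 1.

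Of 9 genes for the shedding of ligands and receptors, 8 reached 1 TPM and none was 2-fold apart (median log2 ratio -0.32). Adam10, a protease of many membrane proteins, was at 43.7 TPM in replicate 2 and 41.4 TPM in replicate 1. Rhbdf1, which brings ADAM17 to the surface, was at 26.1 TPM in replicate 2 and 42.1 TPM in replicate 1, and Bace1, a protease that cuts type III Nrg1, at 28.2 TPM in replicate 2 and 30.7 TPM in replicate 1. Bace2 was lowest, at 0.58 TPM in replicate 2 and 1.16 TPM in replicate 1. The 6 genes of gamma-secretase, which releases the inner part of cleaved ErbB4 and Nrg1, all exceeded 1 TPM, led by Psenen at 122 TPM in replicate 2 and 110 TPM in replicate 1, with Ncstn next at 110 TPM in replicate 2 and 115 TPM in replicate 1, Aph1a at 101 TPM in replicate 2 and 103 TPM in replicate 1, and Aph1b lowest at 15.6 TPM in replicate 2 and 12.5 TPM in replicate 1.

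All 24 adaptors and effectors reached 1 TPM, and none with enough counts was 2-fold apart (23 genes, median log2 ratio 0.05). Plcg1, a phospholipase recruited by active receptors, was highest, at 153 TPM in replicate 2 and 140 TPM in replicate 1, followed by Ncor1, a partner of the released ErbB4 tail, at 126 TPM in replicate 2 and 127 TPM in replicate 1, and Pik3r2, a regulatory subunit of phosphoinositide 3-kinase, at 121 TPM in replicate 2 and 108 TPM in replicate 1. Grb7, an adaptor of ErbB2 and ErbB3, was lowest, at 0.42 TPM in replicate 2 and 2.34 TPM in replicate 1; its log2 ratio of -2.44 (-2.89 to -2.06) was like that of Erbb3, with a mean of 159.5 counts, under the 200 used for the count.

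All 17 negative regulators reached 1 TPM, against 65.2% of protein-coding genes. Of the 17, 2 were at least 2-fold lower in replicate 2, where 3.95% of all genes with enough counts were. Lrig3, of a family of membrane proteins that act on ErbB receptors, was at 4.68 TPM in replicate 2 and 12.1 TPM in replicate 1, a log2 ratio of -1.37 (-1.46 to -1.28), and Spry4, an inhibitor of signalling through Ras, at 2.26 TPM in replicate 2 and 4.83 TPM in replicate 1, a log2 ratio of -1.10 (-1.22 to -0.97). Spry4 was also the lowest of the list. The highest were the ubiquitin ligases Nedd4, at 492 TPM in replicate 2 and 513 TPM in replicate 1, and Stub1, at 188 TPM in replicate 2 and 198 TPM in replicate 1, with Rnf41, the ligase known to act on ErbB3, at 37.4 TPM in replicate 2 and 33.8 TPM in replicate 1. The median log2 ratio of the list was -0.07, close to that of all genes.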

How the data were processed

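Poly(A)+ RNA was measured in 2 libraries of 1 group. The members and gene lists were chosen with earlier results of these data known. Per the text deposited with the tables, the mm10 tables use GENCODE M4; no source used here names the aligner or the quantifier. The authors' tables give each gene's expected counts (fragments estimated per gene), TPM and FPKM, and each transcript's percent of its gene's TPM. On mm9, the deposited tables give RPKM (Ensembl release 65) and the count of reads on each splice junction, in 2 fields that no label matches to a replicate.

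Symbols, positions and exon sequences came from GENCODE M21. Expected counts were rounded and TMM-scaled, with 1 as prior count (edgeR 4.0.16, R 4.3.3; DESeq2 1.42.0 size factors as an alternative). Junctions were matched to M21 introns by intron length, and exons to the mm9 exon table by exon length, within the gene, with no conversion of coordinates. The scaled ratio was tested on simulated data with counting error only and as many genes raised as lowered. In the real data far more genes were lower than higher in replicate 2, an imbalance which that test does not cover. Intervals are exact 95% binomial ones, computed with scipy 1.17.1, and, like floors of 3 counts, cover counting error only, as reads are not independent molecules. A gene's ratio is replicate 2 over replicate 1.

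Named were all members; from each pathway list the 3 highest, the lowest and any gene at least 2-fold apart with a mean count of 200; from each marker list the 2 highest; isoforms with a mean share of at least 10%; and alternative junctions with at least 10 reads. Erbb4-205, Sox10 and Dlx1 fall outside this rule, and some marker genes are not reported here. Tables of assembled gene models, mm9 transcripts and contigs were not used. No genes were named for a like pattern, since 2 libraries of 1 group give none.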

Additional observations from a re-analysis of the deposited data

How the results depend on the processing

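No paired analysis was possible because the samples form a single group. Of the members with enough counts, 2 were at least 2-fold lower in replicate 2 (Erbb3 and Egfr) under TMM, DESeq2 size factors, total count, ERCC spike-ins, log2(TPM + 1) and log2(TPM + 0.01), and no member's ratio changed sign. The ratio of Nrg4 shrank to -0.23 on log2(TPM + 1), a scale that understates changes of low genes. The counts of genes at least 2-fold lower and higher in replicate 2 were 567 and 41; with a minimum mean count of 50 they were 915 and 70, with 1000 they were 248 and 27, and with no filter 3257 and 1161, and log2(TPM + 1) gave 380 lower and 27 higher. By mm9 RPKM, the share of Nrg3 was 40.0% (43.3% by TPM) and that of Erbb2 40.8% (43.4% by TPM). Without length correction (CPM), Erbb4, the longest, ranked first in place of Nrg3. Over protein-coding transcripts only, by construction, Egfr-201 had 87.9%, Egfr-202 12.1% and Erbb2-201 100%. In single fields, JM-a was 31.9% in field 1, and type III starts were 76.7% in field 1 and 54.7% in field 2. Depth limits the Erbb4 splice shares and Nrg4.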
